A study of Mus musculus with 13 samples.

Results

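Total RNA was sequenced from 6 libraries of C57BL/6 mouse cells, 3 of the starting fibroblasts (D0) and 3 of the same cell source after the first 7 days of a chemical induction (D7), out of 13 libraries in the series. The 6 were chosen by their labels, and none of their measured values entered the choice. D0 cells are mouse embryonic fibroblasts, labelled as embryo tissue of stage E13.5. D7 cells started from such fibroblasts and carry the label of chemically induced neural crest cells at day 7. The labels name no compound, no dose and no genetic change. The other 7 libraries hold cells of day 12, induced and primary corneal endothelial cells, and were not fitted here. No untreated culture kept for 7 days is among the groups, so the treatment and the time in culture cannot be told apart. Levels are the FPKM that the authors deposited, a measure of reads corrected for transcript length and sequencing depth. Because the deposited table gives gene IDs that match the D0 columns only, each D7 value was first put back on its gene.

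Fibroblasts make and anchor collagen-rich matrix, pull on it through actin and myosin, and divide in response to growth factors. Neural crest cells leave the dorsal neural tube of the embryo and form, among other tissues, much of the face, peripheral nerves and the inner layers of the cornea. Wnt, BMP and FGF signals set up the neural crest, and retinoic acid patterns it. Retinoic acid is made from retinol by dehydrogenases, acts through nuclear receptors on DNA and induces the enzymes that clear it.

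The 6 libraries held between 18158797 and 24030674 reads, recovered from the smallest steps of the FPKM, and 12902 to 13131 genes reached 1 FPKM per library. After the D7 values were put back on their genes, Spearman's rho across genes was at least 0.917 between libraries of one group and lay between 0.864 and 0.872 between D0 and D7. A total of 15025 genes reached 1 FPKM in at least 1 library and were tested with limma on log2(FPKM + 1). Calls needed a p below 0.05 after Benjamini-Hochberg adjustment together with a log2 fold change of 1 or more in size. Limma called 2285 genes higher in D7 (15.2% of those tested) and 2251 lower (15%), together 4536 genes or 30.2%. The median log2 fold change over all tested genes was -0.03. All adjusted p-values below come from this fit, with 3 libraries in each group. Nothing in the labels states that the 3 libraries of a group came from separate cultures, so p-values rest on a spread among libraries that may be technical.

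Transcript length moved with the difference. Over 8277 protein-coding genes with a mean of 10 FPKM or more in the higher group, Spearman's rho between the log2 fold change and transcript length was -0.35, across genes that are not independent. The median log2 fold change fell from 0.78 in the tenth with the shortest transcripts, up to 865 bases, to -0.49 in the tenth with the longest, from 3394 bases. The FPKM-weighted mean transcript length was 1578, 1632 and 1678 bases in the D0 libraries and 1327, 1329 and 1323 bases in D7. The part of transcript length in any single result was not tested beyond a fit with this trend removed, in which 2116 genes were called higher and 2034 lower. Whether D0 and D7 were prepared and processed in the same way is not given in the sources used here, and its part in the differences was not tested. Counts from the fit with the trend removed are given beside the lists described below whose number of members called in one direction it moved by over 1.5 times.

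**Figure D1:**
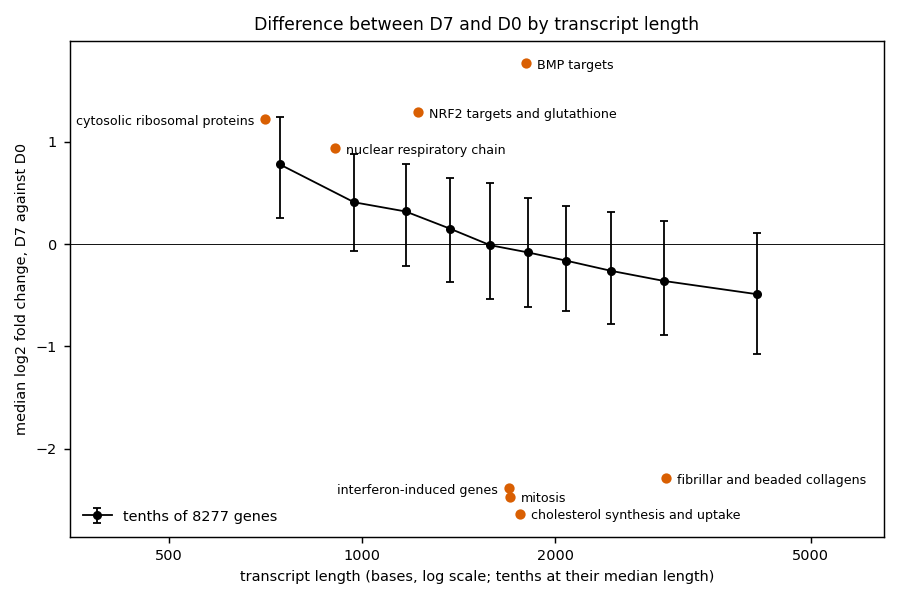
Median log2 fold change of D7 against D0 (vertical axis) in 10 equal groups of 8277 protein-coding genes ordered by transcript length (horizontal axis, bases, log scale), with bars from the lower to the upper quartile, and medians of 8 gene lists as labelled points at their median length. The medians of these groups go from 0.78 at the short end to -0.49 at the long end, and the mitosis, interferon, collagen and cholesterol lists lie far below that line.

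Means are given ± SD over the 3 libraries of a group. Prl2c2, a proliferin of the prolactin family that many growing mouse fibroblast lines secrete, was listed at 0 in all D0 libraries and stood at 523, 538 and 474 FPKM in the D7 libraries. Its neighbour in sequence Prl2c3 stood at 0, 0.563 and 0.185 FPKM in the D0 libraries and 219, 260 and 246 FPKM in D7. Reads of these near-identical genes can be split between copies by the counting, so the level of each is uncertain. Mt3, a metallothionein first found in brain tissue, went up from 0.239 ± 0.169 to 283 ± 15.6 FPKM (log2 fold change 7.85, SE 0.10, adjusted p = 2.89e-10), and Dio3, the deiodinase that inactivates thyroid hormone, from 0.217 ± 0.144 to 206 ± 1.12 FPKM (log2 fold change 7.41, SE 0.08, adjusted p = 2.34e-10). Ptpn5, a phosphatase of neurons, rose to 151 ± 8.4 FPKM, Bex1, a small adaptor protein, to 248 ± 21.3, and Hs3st1, an enzyme that sulphates heparan chains, to 337 ± 7.14, each from a D0 mean of 2.57 FPKM or less. Aspn (asporin), Mgp (matrix Gla protein) and Mfap4, 3 proteins of the extracellular matrix, were among the 5 genes with the greatest fall, as was the macrophage lysozyme Lyz2. In bulk libraries fewer cells of a type and less RNA per cell cannot be told apart, here and in every list below. Aspn stood at 234, 256 and 246 FPKM in the D0 libraries and 0.023, 0 and 0.0475 FPKM in D7. Mgp fell from 241 ± 16 to 0.879 ± 0.305 FPKM and Mfap4 from 501 ± 32.3 to 4.44 ± 0.642 FPKM. The long non-coding transcript AI506816 fell from 205 ± 1.56 to 1.15 ± 0.187 FPKM.

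**Figure D2:**
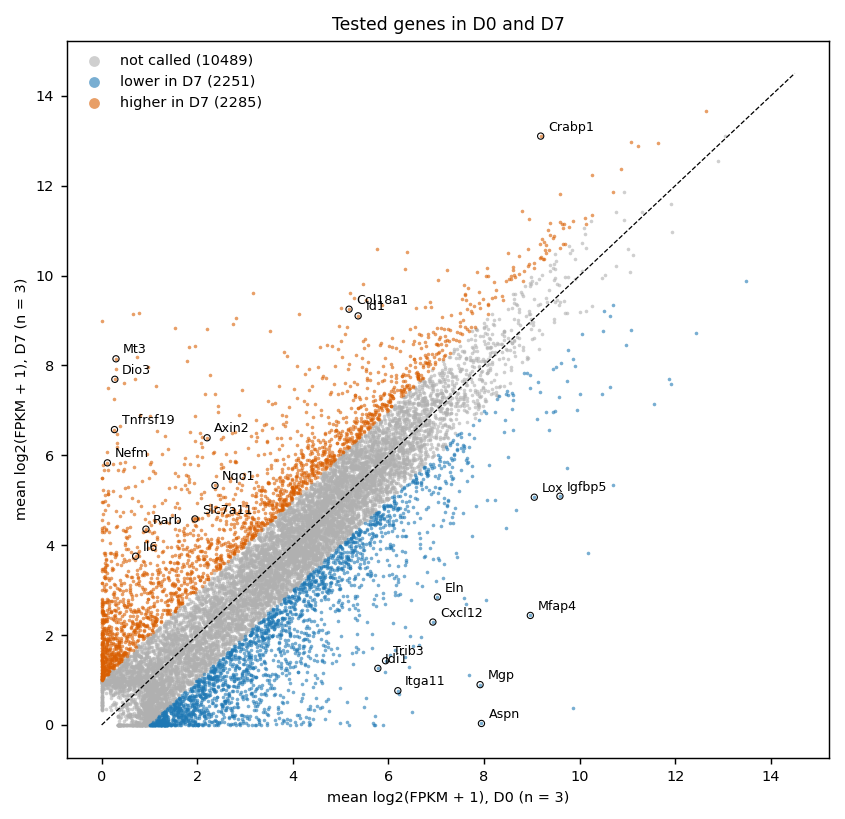
Mean expression of the 15025 tested genes in D0 (horizontal axis) and D7 (vertical axis), both as log2(FPKM + 1), n = 3 libraries each. Genes called higher (2285) are orange, genes called lower (2251) blue and the others grey, and 22 named genes are labelled.

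Many genes of retinoid uptake, turnover and response rose. Of 18 tested members of this list 9 rose and 0 fell, with a median log2 fold change of 1.26 against -0.03 over all genes, and 2 members (Rbp4 and Cyp26a1) could not be put back on a D7 line. Crabp1, which binds retinoic acid in the cytosol, stood at 615, 603 and 528 FPKM in the D0 libraries and 8599, 8710 and 9087 FPKM in D7. It had the greatest gain in mean FPKM of all genes (log2 fold change 3.92, SE 0.07, adjusted p = 1.39e-09). Rarb, a retinoic acid receptor whose own gene is a classical target of retinoic acid, stood at 0.831, 0.829 and 1.05 FPKM in the D0 libraries and 21.4, 21.3 and 16.2 FPKM in D7, so that every D7 library lay above every D0 library (log2 fold change 3.43, SE 0.11, adjusted p = 4.21e-08). Dhrs3, which turns retinal back into retinol, rose from 13.1 ± 1.38 to 314 ± 11.5 FPKM, and Cyp26b1, which degrades retinoic acid, from 28.5 ± 0.788 to 252 ± 13 FPKM. Lrat, which esterifies retinol for storage, was listed at 0 in D0 and stood at 4.3, 4.25 and 3.82 FPKM in the D7 libraries. The dehydrogenases Aldh1a1 and Aldh1a2, which make retinoic acid, rose from 5.09 ± 0.352 to 64.5 ± 2.02 FPKM and from 6.75 ± 0.316 to 30.1 ± 1.64 FPKM, and Crabp2, which carries it to its receptor, from 20.2 ± 1.66 to 89.7 ± 3.33 FPKM. The receptors Rara, Rarg and Rxra were not called, with log2 fold changes of -0.82, 0.08 and -0.65.

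The Rarb promoter holds a direct repeat of the kind that retinoid receptors are known to bind. Below are 92 bases before its start site (GRCm38.p6, from RefSeq, chr14:16575477-16575568, minus strand), with letters that match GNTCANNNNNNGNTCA in capitals.
Rarb: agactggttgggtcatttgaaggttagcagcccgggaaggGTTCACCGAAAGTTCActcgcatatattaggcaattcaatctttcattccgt
On either strand this pattern occurred in 1 of the 13 list members with a promoter in the RefSeq table and in 0.861% of all 32851 promoter windows of 300 bases (250 before and 50 after the start). It is a match of letters and no measurement of binding, and each motif below was likewise sought on both strands of the RefSeq windows. Here and below a list member counts if any of its windows matches, while the share of all windows counts each window singly.

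Feedback genes and targets of Wnt signalling rose in most cases. The list held 17 tested members, of which 10 rose and 2 fell (median log2 fold change 2.41). Beyond the secreted inhibitors, Axin2, a scaffold of the complex that destroys beta-catenin and a general Wnt target, stood at 3.37, 4.14 and 3.37 FPKM in the D0 libraries and 84.9, 81.9 and 82 FPKM in D7, with every D7 library above every D0 library (log2 fold change 4.18, SE 0.07, adjusted p = 1.26e-09). The DNA-binding partners of beta-catenin Lef1 and Tcf7 rose from 0.423 ± 0.0977 to 19 ± 1.01 FPKM and from 2.28 ± 0.112 to 16.4 ± 0.39 FPKM. Sp5, a zinc finger factor induced by Wnt, was listed at 0 in D0 and stood at 16.6, 18.1 and 21.1 FPKM in the D7 libraries. Tnfrsf19, a receptor of the TNF family induced by Wnt, rose from 0.206 ± 0.081 to 94.2 ± 2.98 FPKM and Wif1, a secreted Wnt binder, from 0.0322 ± 0.0287 to 50.4 ± 1.37 FPKM. Lgr5, a receptor for R-spondins, went the other way, from 25.9 ± 1.67 to 7.03 ± 0.963 FPKM, as did Cd44, a hyaluronan receptor, from 131 ± 6.32 to 44.4 ± 0.695 FPKM. Myc was not called (log2 fold change -0.89, SE 0.06, adjusted p = 1.89e-06).

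The promoters of 2 of 11 list members with a RefSeq window held ATCAAAG, a core of TCF and LEF binding, against 3.73% of all windows. Both rose in D7, and their surroundings are shown with the core, or its reverse complement, in capitals. The Sp5 stretch is chr2:70474779-70474865 on the plus strand and that of Tnfrsf19 is chr14:61038143-61038229 on the minus strand.
Sp5: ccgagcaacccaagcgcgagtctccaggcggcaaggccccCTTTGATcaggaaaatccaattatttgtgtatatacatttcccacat
Tnfrsf19: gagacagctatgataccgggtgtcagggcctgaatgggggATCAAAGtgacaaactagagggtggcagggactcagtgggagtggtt

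Most targets of BMP rose while several targets of TGF-beta fell, although both signals belong to one family of ligands. Among 12 tested BMP targets 9 rose and 0 fell (median 1.77). Id1, an inhibitor of helix-loop-helix factors, stood at 43, 40.9 and 37.1 FPKM in the D0 libraries and 548, 532 and 567 FPKM in D7, and all D7 libraries lay above all D0 libraries (log2 fold change 3.74, SE 0.06, adjusted p = 9.35e-10). Id3 rose from 230 ± 19.4 to 1080 ± 21.1 FPKM and Id2 from 29.9 ± 1.44 to 128 ± 4.97 FPKM, while Id4 was not called (log2 fold change 0.87, SE 0.07, adjusted p = 6.26e-06). Id4 was called with the length trend removed (1.24), with a pseudocount of 0.1 (1.01) and with voom on recovered reads (1.02). The feedback inhibitors Nog, which traps BMP outside the cell, and Smad6, which acts inside it, rose from 0.858 ± 0.19 to 9.6 ± 0.73 FPKM and from 12 ± 0.676 to 26.5 ± 0.948 FPKM, Smad6 to just under the fold limit (0.93) with the length trend removed. The homeobox gene Msx2 rose from 1.16 ± 0.0537 to 15.1 ± 0.556 FPKM. Of 16 tested TGF-beta targets 2 rose and 7 fell (median -0.76). Ccn2, a matricellular protein that is also a target of YAP, stood at 143, 139 and 137 FPKM in the D0 libraries and 8.52, 8.88 and 8.65 FPKM in D7, and the groups did not overlap (log2 fold change -3.86, SE 0.04, adjusted p = 2.12e-10). Ltbp2, a protein of microfibrils, fell from 79.3 ± 1.31 to 23.6 ± 0.439 FPKM. Tgfbi, an adhesion protein of the cornea and other matrices, rose from 70.8 ± 4.2 to 336 ± 10.9 FPKM, and Cdkn2b, an inhibitor of cell cycle kinases, from 42.1 ± 2.83 to 136 ± 2.75 FPKM. Smad7, the feedback inhibitor of TGF-beta, was not called (log2 fold change 0.26, SE 0.06, adjusted p = 0.00275).

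Other pathways gave smaller or mixed differences. Over all genes tested 15.2% rose and 15% fell, and the risers of the Hedgehog and cAMP lists were near that share. Of 13 tested YAP targets 0 rose and 5 fell, among them Amotl2 from 198 ± 1.79 to 60.9 ± 1.65 FPKM and F3 (tissue factor) from 130 ± 2.6 to 34.9 ± 1.48 FPKM, whereas Ccn1, another YAP target, was not called (log2 fold change 0.47, SE 0.04, adjusted p = 1.8e-05). Among 13 feedback genes of FGF and ERK signalling 3 rose and 1 fell (5 and 1 with the length trend removed). The ETS factors Etv4 and Etv5 rose from 13.9 ± 0.887 to 62.3 ± 0.819 FPKM and from 18.7 ± 0.844 to 78.5 ± 2.43 FPKM, and Phlda1 from 3.28 ± 0.372 to 71.9 ± 6.04 FPKM, but Spry1, an inhibitor of the same pathway, fell from 41.3 ± 1.25 to 10.3 ± 0.569 FPKM. Of 10 Hedgehog genes 2 rose and 0 fell, namely the receptor Ptch1, itself a target, from 2.58 ± 0.296 to 8.07 ± 1.02 FPKM and the binder Hhip from 0.399 ± 0.0777 to 2.07 ± 0.14 FPKM. In the Notch list of 11 the ligands Jag2 and Dll1 rose from 0.69 ± 0.187 to 13.2 ± 1.61 FPKM and from 0.425 ± 0.038 to 9.15 ± 0.26 FPKM, while the ligand Jag1 fell from 14.9 ± 0.158 to 2.49 ± 0.284 FPKM. Its target Hes1 was not called (log2 fold change -0.26, SE 0.14, adjusted p = 0.131). Of 17 targets of cAMP 3 rose and 1 fell, with Areg, a ligand of the EGF receptor, from 0.3 ± 0.0598 to 55.7 ± 1.13 FPKM, and the immediate early factors Nr4a1 and Fosb were not called, with log2 fold changes of 0.55 and -0.91.

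**Figure D3:**
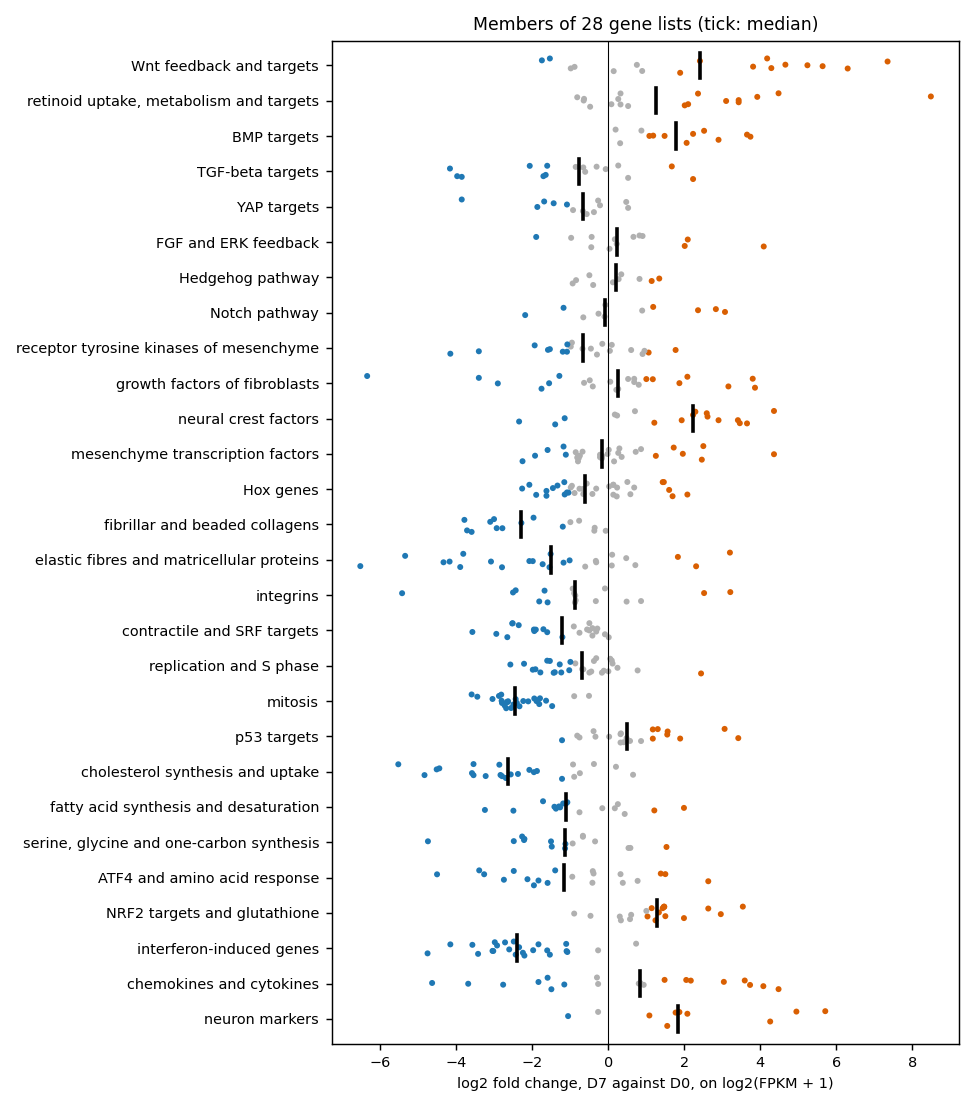
Log2 fold change of D7 against D0 (horizontal axis, on log2(FPKM + 1)) for every tested member of 28 gene lists (rows), 1 point per gene. Called genes are orange (higher) or blue (lower), others grey, and the black tick is the list's median, such as 1.77 for BMP targets and -2.47 for mitosis.

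Receptors and ligands changed in both directions within families. The PDGF receptors went opposite ways. Pdgfrb stood at 111, 109 and 111 FPKM in the D0 libraries and 9.42, 9.75 and 9.39 FPKM in D7 (log2 fold change -3.41, SE 0.04, adjusted p = 2.52e-10), and Pdgfra at 163, 181 and 189 FPKM in the D0 libraries and 370, 384 and 357 FPKM in D7 (log2 fold change 1.06, SE 0.06, adjusted p = 9.85e-07). Neither gene had overlapping groups, but Pdgfra fell just under the fold limit without D0 replicate 1. Of 21 receptor tyrosine kinases 2 rose and 8 fell (4 and 6 with the length trend removed), the other riser being Ntrk2, a neurotrophin receptor, from 0.326 ± 0.095 to 3.53 ± 0.25 FPKM. The ephrin receptor Epha3 fell from 30.6 ± 2.74 to 0.773 ± 0.219 FPKM and Ephb3 from 46.5 ± 2.74 to 11.4 ± 0.391 FPKM. Of 23 growth factors 7 rose and 6 fell. Kitl, the ligand of Kit that supports melanoblasts, stood at 4.85, 4.33 and 5.25 FPKM in the D0 libraries and 81.1, 86.7 and 82.6 FPKM in D7 (log2 fold change 3.86, SE 0.07, adjusted p = 1.37e-09). The neurotrophin Ntf3 rose from 4.22 ± 0.143 to 45.6 ± 1.98 FPKM, Gdnf from 0.535 ± 0.144 to 5.49 ± 0.26 FPKM and Gdf10 from 2.4 ± 0.0852 to 46.2 ± 0.969 FPKM. Vegfd and Igf2 fell from 30.3 ± 1.31 to 1.94 ± 0.115 FPKM and from 25.9 ± 4.29 to 2.59 ± 0.575 FPKM. Among the FGF genes Fgf18 rose from 1.22 ± 0.189 to 10.8 ± 0.28 FPKM and Fgf2 fell from 31.2 ± 2.4 to 8.37 ± 0.762 FPKM, with 1 riser and 3 fallers among 12. Guidance molecules changed in both directions, with 9 higher and 8 lower of 26 (10 and 5 with the length trend removed): the receptors Plxna4 and Robo2 rose from 2.25 ± 0.312 to 19 ± 0.253 FPKM and from 2.32 ± 0.633 to 18.2 ± 1.03 FPKM, and the neuropilins Nrp1 and Nrp2 fell from 52.7 ± 6.78 to 6.39 ± 0.738 FPKM and from 50.4 ± 2.93 to 8.41 ± 0.359 FPKM. Slit1 rose from 0.46 ± 0.116 to 14 ± 0.672 FPKM while its relatives Slit2 and Slit3 fell from 67.7 ± 8.03 to 21.2 ± 0.555 FPKM and from 477 ± 40.9 to 227 ± 8.52 FPKM, Slit3 losing its call without D0 replicate 3 and with the length trend removed (-0.95).

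The transcription factors that mark neural crest rose in part. Of 17 tested neural crest factors 11 rose and 3 fell (median 2.23), and Foxd3, Pax7 and Dlx5 stayed under 1 FPKM in all 6 libraries. Snai1, a repressor active when crest cells leave the epithelium, stood at 27.2, 28.4 and 25.3 FPKM in the D0 libraries and 167, 173 and 168 FPKM in D7, without overlap (log2 fold change 2.61, SE 0.05, adjusted p = 2.36e-09). The AP-2 factors Tfap2b and Tfap2c rose from 0.532 ± 0.0188 to 6.5 ± 0.598 FPKM and from 0.0443 ± 0.0615 to 10.5 ± 0.739 FPKM, and the nuclear receptors Nr2f1 and Nr2f2 from 3.08 ± 0.765 to 23.4 ± 2.33 FPKM and from 12.7 ± 0.285 to 51.2 ± 2.34 FPKM. Sox9 and Ets1, which also act in crest cells, fell from 7.13 ± 0.318 to 0.599 ± 0.129 FPKM and from 30.8 ± 0.915 to 11.1 ± 0.476 FPKM. Snai2 and Zic1 were not called, with log2 fold changes of 0.23 and 0.17. Among 30 factors of mesenchyme 6 rose and 5 fell, near the 15.2% and 15% of all genes tested. Twist2, Prrx2 and Pitx1, factors of limb and face mesenchyme, rose from 16 ± 0.634 to 92.9 ± 7.39 FPKM, from 44.7 ± 16.5 to 248 ± 23.1 FPKM and from 6.49 ± 0.823 to 23.7 ± 2.59 FPKM. Tbx5 and Alx4, of forelimb and limb bud, fell from 9.33 ± 0.488 to 1.16 ± 0.139 FPKM and from 4.23 ± 0.284 to 0.367 ± 0.0193 FPKM. Prrx1, the close relative of Prrx2, was not called (log2 fold change 0.35, SE 0.06, adjusted p = 0.000825).

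Hox genes record position along the body axis. Of 34 tested 5 rose, 11 fell and 18 were not called (median -0.61), the risers being near the 15.2% of all genes tested that rose. The risers were Hoxc13, Hoxd1, Hoxd8, Hoxd9 and Hoxd13. Hoxd8 stood at 11.3, 10.4 and 8.67 FPKM in the D0 libraries and 27.6, 30.5 and 30.3 FPKM in D7 and Hoxd13 at 2.67, 3.08 and 2.53 FPKM in the D0 libraries and 10.4, 9.89 and 10.8 FPKM in D7. Those that fell included Hoxa9 and Hoxa10 of the A cluster, from 17.1 ± 1.04 to 4.87 ± 0.748 FPKM and from 34.4 ± 1.56 to 10.4 ± 0.4 FPKM, Hoxc9 from 17.5 ± 1.18 to 3.98 ± 0.554 FPKM and Hoxb3 from 9.64 ± 0.502 to 1.21 ± 0.323 FPKM. Hoxb9, the most abundant at D7, was not called (log2 fold change 0.02, SE 0.04, adjusted p = 0.672). Factors of neurons were low in both groups. Of 19 list members 9 stayed under 1 FPKM in all 6 libraries and were not tested, among them Neurog1, Neurog2 and Pax6. Of 10 tested 7 rose and 1 fell. Neurod1 and Pou4f1, factors of neuron formation, reached D7 means of 1.72 and 2.13 FPKM, and Sox4 fell from 21.8 ± 1.68 to 7.5 ± 1.1 FPKM.

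Most fibrillar collagen genes fell. Of 15 fibrillar and beaded collagens 0 rose and 10 fell (median -2.29), and their summed level went from 23267 to 24048 FPKM in D0 libraries to 2961 to 2978 FPKM in D7. Col3a1, the partner of type I collagen in soft tissue, stood at 2178, 2126 and 2173 FPKM in the D0 libraries and 440, 434 and 444 FPKM in D7, with no overlap (log2 fold change -2.29, SE 0.04, adjusted p = 1.44e-09). Col5a1 and Col11a1, which start fibrils, fell from 652 ± 23.4 to 93.3 ± 0.625 FPKM and from 127 ± 4.91 to 8.22 ± 0.242 FPKM. Col6a1, of beaded filaments, was not called (log2 fold change -0.37, SE 0.04, adjusted p = 4.57e-05). Among 22 genes of collagen processing 0 rose and 9 fell (1 and 7 with the length trend removed). Lox, which cross-links collagen and elastin, stood at 487, 534 and 572 FPKM in the D0 libraries and 31.5, 33.5 and 32.6 FPKM in D7 (log2 fold change -3.98, SE 0.06, adjusted p = 8.63e-10), Serpinh1, the collagen chaperone, fell from 1671 ± 75.2 to 652 ± 8.43 FPKM, and Pcolce, which helps to cut the collagen propeptide, from 761 ± 55.2 to 157 ± 1.38 FPKM. In the basement membrane list 4 of 18 rose and 9 fell. The type IV chains Col4a1 and Col4a2 fell from 1031 ± 67.4 to 163 ± 1.29 FPKM and from 626 ± 20.9 to 123 ± 0.884 FPKM, while Col18a1, the parent of endostatin, stood at 36, 35 and 34.5 FPKM in the D0 libraries and 607, 611 and 607 FPKM in D7 (log2 fold change 4.08, SE 0.04, adjusted p = 1.11e-10). The laminin Lama4 fell from 110 ± 4 to 38.2 ± 1.43 FPKM.

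Of 25 tested genes of elastic fibres and matricellular proteins 3 rose, 15 fell and 7 were not called (median -1.52). Eln, elastin itself, stood at 123, 135 and 131 FPKM in the D0 libraries and 6.74, 5.89 and 6 FPKM in D7, and the groups did not overlap (log2 fold change -4.18, SE 0.06, adjusted p = 6.52e-10). Thbs1, an adhesive glycoprotein, fell from 3882 ± 270 to 191 ± 4.11 FPKM, and the fibronectin gene Fn1 from 3739 ± 280 to 206 ± 3.87 FPKM. Postn fell from 1656 ± 16.1 to 39.6 ± 0.928 FPKM, Ccn4, a Wnt-induced matricellular protein, from 407 ± 26.6 to 26.4 ± 1.48 FPKM, and Spp1 (osteopontin), which macrophages also express, from 1412 ± 73.8 to 165 ± 10.6 FPKM. Fbln1, Mfap5 and Efemp1 rose from 92.6 ± 6.62 to 462 ± 17.7 FPKM, from 9.34 ± 1.35 to 93.3 ± 1.43 FPKM and from 15.9 ± 0.678 to 58.8 ± 1.67 FPKM. Sparc, a collagen-binding protein, was not called (log2 fold change -0.32, SE 0.05, adjusted p = 0.000562). Of 19 proteoglycans and hyaluronan synthases 4 rose and 6 fell, and 8 rose and 6 fell with the length trend removed. Bgn (biglycan) fell from 2997 ± 56.2 to 140 ± 4.92 FPKM and Fmod (fibromodulin) from 16.1 ± 1.59 to 0.175 ± 0.0513 FPKM, whereas Dcn (decorin) was not called (log2 fold change 0.17, SE 0.06, adjusted p = 0.0184). The cell surface heparan proteoglycans Gpc1 and Sdc1 rose from 136 ± 4.13 to 455 ± 15.8 FPKM and from 150 ± 7.64 to 448 ± 7.97 FPKM.

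Proteases, adhesion receptors and the contractile apparatus were altered as well. Of 22 proteases and inhibitors 2 rose and 9 fell. Mmp2, a gelatinase, stood at 438, 420 and 411 FPKM in the D0 libraries and 1366, 1427 and 1337 FPKM in D7 (log2 fold change 1.70, SE 0.05, adjusted p = 1.44e-08), while Mmp14, which activates it, fell from 869 ± 11.1 to 323 ± 11.9 FPKM, and Adamts1 and Adamts5, which cut proteoglycans, from 131 ± 9.06 to 12.2 ± 0.436 FPKM and from 12.4 ± 0.945 to 0.22 ± 0.0481 FPKM. Of 17 integrins 2 rose and 6 fell, beside 15.2% and 15% of all genes tested. The risers were Itga6 and Itgb4, the chains of the laminin receptor of hemidesmosomes, from 10.5 ± 0.961 to 65 ± 1.84 FPKM and from 1.08 ± 0.122 to 18.3 ± 0.432 FPKM. Itga11, a collagen receptor of fibroblasts, stood at 69.5, 71.8 and 75.9 FPKM in the D0 libraries and 0.57, 0.88 and 0.653 FPKM in D7 (log2 fold change -5.43, SE 0.08, adjusted p = 6.11e-10), and Itga5, of the fibronectin receptor, fell from 147 ± 1.89 to 41 ± 1.49 FPKM. In the list of 23 contractile genes and targets of SRF 0 rose and 12 fell (median -1.21). Acta2, smooth muscle actin, stood at 2125, 2027 and 1893 FPKM in the D0 libraries and 349, 329 and 372 FPKM in D7 (log2 fold change -2.52, SE 0.06, adjusted p = 8.9e-09), and Vcl, vinculin of focal adhesions, fell from 143 ± 20.6 to 11.1 ± 1.15 FPKM. Flna and Myh9, an actin cross-linker and a non-muscle myosin, fell from 961 ± 81.8 to 254 ± 4.8 FPKM and from 930 ± 27.8 to 284 ± 4.28 FPKM, while Tpm1 was not called (log2 fold change -0.56, SE 0.05, adjusted p = 1.6e-05) and the factor Srf itself stood at a log2 fold change of 0.01. Cdh11, the main cadherin of fibroblasts, was not called (log2 fold change 0.09, SE 0.05, adjusted p = 0.101). Mcam and Ncam1 fell from 106 ± 1.25 to 12.4 ± 0.819 FPKM and from 56.6 ± 2.57 to 18.8 ± 0.943 FPKM, and Nrcam, an adhesion molecule of axons, rose from 0.803 ± 0.141 to 42.1 ± 0.597 FPKM.

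**Figure D4:**
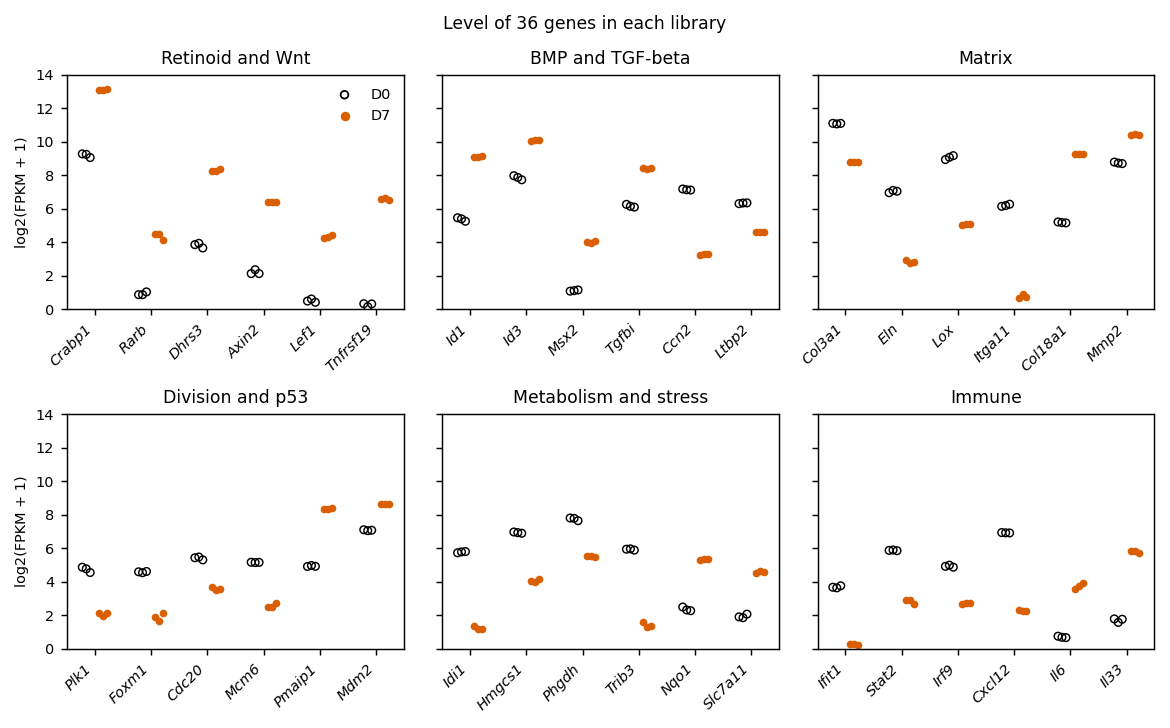
Level in each library, as log2(FPKM + 1) on the vertical axis, of 36 genes in 6 panels, with 3 open circles for D0 and 3 filled circles for D7 per gene. Only genes whose groups stand apart were shown, for example Id1 at 40.3 ± 3 FPKM in D0 and 549 ± 17.9 in D7, and Eln at 129 ± 6.25 and 6.21 ± 0.46.

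Transcripts of mitosis fell, and those of DNA replication fell in part. Of 28 mitosis genes 0 rose and 26 fell (median -2.47), with Kif11 and Mad2l1 not called. Their summed level was 582 to 592 FPKM in D0 libraries and 90.2 to 98.2 FPKM in D7. Plk1, a kinase of mitotic entry, stood at 28.4, 26.4 and 22.6 FPKM in the D0 libraries and 3.37, 2.84 and 3.39 FPKM in D7 (log2 fold change -2.67, SE 0.10, adjusted p = 6.33e-08), and Foxm1, the factor that drives mitotic genes, fell from 23.1 ± 0.636 to 2.78 ± 0.604 FPKM. Among 29 replication genes 1 rose and 13 fell (median -0.69), and Mcm2 could not be put back on a D7 line. The helicase subunits Mcm5 and Mcm6 fell from 14.3 ± 0.467 to 3.08 ± 0.579 FPKM and from 34.9 ± 0.217 to 5.04 ± 0.62 FPKM, while Rrm2, Ccne1 and Pcna were not called, with log2 fold changes of 0.09, 0.05 and -0.69, Pcna reaching -1.04 with the length trend removed. Dut, which removes dUTP, rose from 20.4 ± 1.42 to 115 ± 0.882 FPKM.

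Promoters of mitotic genes share short elements. The cell cycle homology region, TTTGAA on either strand, was found in 17 of 23 list members with a RefSeq window and in 17.9% of all windows. CCAAT was found in 18 of 23 against 37.4% of all windows. Among the 10461 tested genes with a window the shares were 14.2% for TTTGAA and 43% for CCAAT. Cdc20, an activator of the anaphase complex, fell from 41.7 ± 2.57 to 11.1 ± 0.643 FPKM, and Ube2c, its partner enzyme, from 20 ± 0.895 to 5.08 ± 0.927 FPKM. Stretches before their start sites are given with TTTGAA or its reverse complement in capitals, from chr4:118437344-118437401 on the minus strand and chr2:164769860-164769928 on the plus strand. In Cdc20 the letters ccaat follow the capitals by a few bases.
Cdc20: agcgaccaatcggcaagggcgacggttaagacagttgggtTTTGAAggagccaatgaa
Ube2c: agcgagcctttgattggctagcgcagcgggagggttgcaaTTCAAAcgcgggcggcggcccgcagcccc

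Of 21 p53 targets 8 rose, 1 fell and 12 were not called (median 0.48), and 7 rose and 2 fell with the length trend removed. Pmaip1 (Noxa), which triggers apoptosis, stood at 29.3, 30.5 and 29.5 FPKM in the D0 libraries and 325, 324 and 332 FPKM in D7, without overlap (log2 fold change 3.42, SE 0.04, adjusted p = 2.3e-10). Mdm2, the ligase that degrades p53, rose from 135 ± 2.61 to 398 ± 3.55 FPKM, Cdkn1a (p21) from 426 ± 16.9 to 1053 ± 28.3 FPKM, Fas from 10.3 ± 1.23 to 40.5 ± 1.09 FPKM and Perp from 3.25 ± 0.337 to 34.5 ± 2.22 FPKM. Bbc3 (Puma) and Btg2 were not called, with log2 fold changes of -0.82 (-1.17 and called with the length trend removed) and -0.76, nor was Trp53 (log2 fold change 0.16, SE 0.04, adjusted p = 0.00921). Cdkn2a, which encodes p16 and p19Arf, rose from 47 ± 2.99 to 348 ± 4.53 FPKM, but Cdkn1b (p27) fell from 24.2 ± 1.35 to 3.77 ± 0.134 FPKM and Lmnb1, a lamin that senescent cells lose, from 35.4 ± 0.964 to 10.6 ± 0.786 FPKM. In this list of inhibitors and senescence genes 6 of 15 rose and 6 fell. The high-mobility proteins Hmga1 and Hmga2 rose from 118 ± 5.78 to 628 ± 10.5 FPKM and from 83.9 ± 2.59 to 220 ± 7.59 FPKM.

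Most genes of cholesterol synthesis and uptake fell. Of 24 genes of cholesterol synthesis and uptake 0 rose and 18 fell (median -2.64). Idi1, which isomerises an early isoprenoid, stood at 52.3, 54.3 and 55.1 FPKM in the D0 libraries and 1.55, 1.33 and 1.32 FPKM in D7, with no overlap (log2 fold change -4.52, SE 0.06, adjusted p = 4.04e-10). The factor Srebf2, which drives the pathway, fell from 161 ± 2.64 to 23.9 ± 0.592 FPKM. Among the other enzymes Hmgcs1, near the start, fell from 122 ± 3.17 to 15.8 ± 1.13 FPKM, and Cyp51, further along, from 215 ± 1.91 to 17.5 ± 2.98 FPKM. Dhcr7, the last enzyme, was not called (log2 fold change 0.65, SE 0.05, adjusted p = 4.56e-06). Fdps fell from 12.1 ± 0.882 to 0.12 ± 0.0486 FPKM, a gene with many pseudogene copies whose level is uncertain. Of 17 genes of fatty acid synthesis 2 rose and 10 fell (2 and 7 with the length trend removed), among them Fasn from 135 ± 4.98 to 51.5 ± 1.95 FPKM and the desaturase Fads2 from 101 ± 3.59 to 17 ± 1.15 FPKM, while Scd1 was not called (log2 fold change -0.16, SE 0.06, adjusted p = 0.0412). Apoe, which carries lipids out of cells and is abundant in macrophages, fell from 855 ± 78.1 to 52.2 ± 5.16 FPKM. Of 19 genes of fatty acid oxidation and PPAR response 6 rose and 2 fell. Plin2, which coats lipid droplets, rose from 297 ± 15.5 to 930 ± 25.4 FPKM, and Angptl4, Pdk4 and Ucp2 from 45.3 ± 1.79 to 236 ± 2.92 FPKM, from 3.12 ± 0.447 to 14.7 ± 0.642 FPKM and from 45.6 ± 5.84 to 242 ± 8.28 FPKM.

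All 16 cholesterol genes with a RefSeq promoter held CCAAT, the box bound by NF-Y, against 37.4% of all windows and 43% of the 10461 tested genes with a window. TCACNCCAC, a core of the sterol response element, was found in 1 of the 16, Hmgcs1, against 1.24% of all windows. The Hmgcs1 stretch with this core in capitals is chr13:119690174-119690262 on the plus strand.
Hmgcs1: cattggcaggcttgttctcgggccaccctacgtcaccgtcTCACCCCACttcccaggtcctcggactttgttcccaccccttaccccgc

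Many transcripts of amino acid synthesis and of the ATF4 response fell. Of 16 genes of serine, glycine and one-carbon synthesis 1 rose and 9 fell (median -1.14). Phgdh, the first enzyme of serine synthesis, stood at 224, 220 and 200 FPKM in the D0 libraries and 46.6, 46.1 and 43.9 FPKM in D7 (log2 fold change -2.21, SE 0.05, adjusted p = 7.37e-09), and Psat1, the next, fell from 206 ± 7.13 to 71.6 ± 1.49 FPKM. The mitochondrial folate enzymes Mthfd2 and Aldh1l2 fell from 110 ± 4.05 to 18.8 ± 1.44 FPKM and from 60.1 ± 6.14 to 1.29 ± 0.417 FPKM, and Asns, asparagine synthetase, from 177 ± 8.64 to 36 ± 1.76 FPKM. Of 20 genes of the ATF4 and amino acid response 3 rose and 10 fell. Trib3, a pseudokinase, stood at 60.9, 61.7 and 58.6 FPKM in the D0 libraries and 2.02, 1.47 and 1.62 FPKM in D7 (log2 fold change -4.51, SE 0.08, adjusted p = 1.46e-09), Chac1, which breaks down glutathione, fell from 14.1 ± 1.44 to 1.24 ± 0.287 FPKM, Nupr1 from 71.6 ± 7.82 to 17.6 ± 0.955 FPKM and the leucine transporter Slc7a5 from 133 ± 1.78 to 11.7 ± 0.275 FPKM. Atf4 itself was not called (log2 fold change -0.41, SE 0.06, adjusted p = 0.000363). Slc7a11, which imports cystine for glutathione and is a target of both ATF4 and NRF2, rose from 2.88 ± 0.304 to 23 ± 1.15 FPKM.

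The letters TTGCATCA, an element bound by ATF4 with CEBP factors, stood in the promoters of 7 of 18 list members with a RefSeq window and in 0.895% of all windows. Chac1 and Nupr1 fell and Slc7a11 rose, and all these promoters hold the element, in capitals below. The Slc7a11 window holds 2 matches, and the first, shown in capitals, is the reverse complement. The stretches are chr2:119351009-119351096 (plus strand), chr7:126625533-126625620 (minus strand) and chr3:50443632-50443719 (minus strand).
Chac1: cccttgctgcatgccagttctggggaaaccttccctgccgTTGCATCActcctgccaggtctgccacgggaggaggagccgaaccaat
Nupr1: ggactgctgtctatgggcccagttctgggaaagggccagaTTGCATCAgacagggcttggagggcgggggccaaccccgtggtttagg
Slc7a11: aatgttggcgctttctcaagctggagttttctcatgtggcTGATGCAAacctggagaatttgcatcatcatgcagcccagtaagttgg

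Most antioxidant genes under NRF2 rose. Of 20 tested 13 rose and 0 fell (median 1.29), and 12 rose and 1 fell with the length trend removed. Nqo1, a quinone reductase, stood at 4.67, 4.02 and 3.87 FPKM in the D0 libraries and 38.1, 40 and 39.6 FPKM in D7, with every D7 library above every D0 library (log2 fold change 2.96, SE 0.07, adjusted p = 5.94e-09). Gsta4, a glutathione transferase for lipid aldehydes, rose from 18.3 ± 2.34 to 223 ± 6.95 FPKM, and Gclc and Gclm, the subunits that start glutathione synthesis, from 14.8 ± 0.769 to 42.6 ± 0.693 FPKM and from 20.3 ± 1.73 to 57.9 ± 0.554 FPKM. Hmox1, which breaks down haem, rose from 84.7 ± 2.44 to 235 ± 6.27 FPKM, Txnrd1 from 120 ± 2.39 to 302 ± 2.33 FPKM and the NADPH enzyme Taldo1 from 102 ± 13 to 406 ± 14.4 FPKM. Mt1, a metallothionein that binds zinc, rose from 80.6 ± 11 to 1138 ± 53.2 FPKM (log2 fold change 3.81, SE 0.09, adjusted p = 6.68e-09). Mt2, of the same family, stayed under 1 FPKM in all 6 libraries, and the part of counting or placement in this was not tested. The small heat shock proteins Cryab and Hspb8 rose from 131 ± 9.4 to 961 ± 7.45 FPKM and from 42.8 ± 0.85 to 288 ± 1.84 FPKM, but Hspb1 fell from 155 ± 9.03 to 76.7 ± 3.58 FPKM, a call lost at -0.96 without D0 replicate 1 and at -0.97 without D7 replicate 2. Of 16 heat shock genes 3 rose and 2 fell (3 and 1 with the length trend removed), near the 15.2% and 15% of all genes tested. Of 20 genes of the unfolded protein response 2 rose and 1 fell (0 and 1 with the length trend removed), under those shares. Hspa5, the main chaperone of this response, was not called (log2 fold change 0.27, SE 0.04, adjusted p = 0.000352). Of 32 lysosome and autophagy genes 2 rose and 6 fell, beside 15.2% and 15% of all genes tested. Ctsl, a cathepsin, rose from 446 ± 15 to 2770 ± 27.8 FPKM and Ctsk, a collagen-cutting cathepsin, fell from 67 ± 4.09 to 22.2 ± 0.54 FPKM.

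Of 23 genes of glycolysis and lactate 4 rose and 1 fell, the risers being near the 15.2% of all genes tested that rose. Slc16a1, a lactate transporter, rose from 5.42 ± 0.411 to 57.3 ± 0.979 FPKM, Ldhb from 54.2 ± 6.44 to 230 ± 8.23 FPKM and Hk2 from 11.9 ± 0.528 to 38 ± 1.44 FPKM, while Aldoc fell from 8.45 ± 1.4 to 1.09 ± 0.171 FPKM and Slc2a1, the main glucose transporter, was not called (log2 fold change 0.20, SE 0.06, adjusted p = 0.0133). Of 25 nuclear genes of the respiratory chain 12 rose and 0 fell, and 6 rose in the fit with the length trend removed (median transcript length 907 bases). Cox8a stood at 260, 240 and 216 FPKM in the D0 libraries and 814, 771 and 804 FPKM in D7 (log2 fold change 1.74, SE 0.07, adjusted p = 1.01e-07), and Sdha, with a longer transcript, was not called (log2 fold change -0.14, SE 0.04, adjusted p = 0.00888). Of 11 tested genes of the mitochondrial genome 10 rose and 0 fell, among them mt-Nd4 from 767 ± 30.7 to 3586 ± 193 FPKM. mt-Co1 lost its call without D7 replicate 1 or D7 replicate 2 (0.99 in both). All genes of the mitochondrial genome with a value, a wider set than the 11 tested, held 2.549 to 2.7% of all FPKM in D0 libraries and 5.874 to 6.088% in D7 (a ratio of means of 2.277, exact two-sided permutation test, p = 0.1, the smallest value that 3 against 3 libraries allow). mt-Co2, mt-Co3 and mt-Atp6, whose reads nuclear copies of mitochondrial DNA can share, stood at 7.38, 2.49 and 1.8 FPKM in D0, far below mt-Co1 at 6436, so their levels are uncertain.

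Most genes of cytosolic ribosomal proteins rose, a list drawn up after values had been seen. Of 78 tested 54 rose, 6 fell and 18 were not called (median 1.22), and they held 6.25 to 7.21% of all FPKM in D0 libraries and 11.6 to 12.4% in D7. Rplp1, of the ribosomal stalk, stood at 1861, 1679 and 1488 FPKM in the D0 libraries and 3735, 3617 and 3774 FPKM in D7 (log2 fold change 1.15, SE 0.08, adjusted p = 3.13e-06). Their transcripts are short, with a median of 706 bases, and in the fit with the length trend removed 20 rose and 6 fell (median 0.79), Rplp1 being one that was no longer called (0.66). Tpt1, whose messenger RNA is regulated like those of ribosomal proteins, rose from 2385 ± 176 to 7589 ± 227 FPKM. Of 76 mitochondrial ribosomal proteins 19 rose and 0 fell, and 10 rose with the length trend removed.

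Many processed pseudogenes, copies of messenger RNA in the genome, rose. Of 849 tested 29.4% rose and 6.48% fell, against 14.6% and 15.1% of the 12794 protein-coding genes of all lengths. Among protein-coding genes with a mean of 10 FPKM or more in the higher group, short transcripts also rose often. With up to 865 bases 314 of 828 rose and 36 fell, and with 866 to 1071 bases 164 of 830 rose and 58 fell. The part of transcript length in the pseudogene shares was not tested. Pseudogenes of any kind held 1.68 to 1.76% of all FPKM in D0 libraries and 4.07 to 4.17% in D7. Some parent genes fell while the summed level of their copies was higher. Rps2 stood at 1720, 1622 and 1427 FPKM in the D0 libraries and 576, 522 and 554 FPKM in D7, its 9 named pseudogenes together at 21.8, 22.7 and 19.5 FPKM in the D0 libraries and 1402, 1312 and 1296 FPKM in D7, and parent and copies together at 1742, 1645 and 1447 FPKM in the D0 libraries and 1978, 1834 and 1850 FPKM in D7. The sum of the family was 0.23 higher on the log2 scale in D7, although the parent was called lower. Rpl34 stood at 406, 340 and 316 FPKM in the D0 libraries and 17.5, 23.3 and 18.8 FPKM in D7. Its 2 copies together stood at 33, 83.3 and 55.5 FPKM in the D0 libraries and 1498, 1541 and 1609 FPKM in D7. Over the 59 ribosomal families with named pseudogenes the summed mean was higher in D7 for 55 and lower for 4 (median log2 ratio 1.24). The 4 were Rps18, Rpl21, Rpl29 and Rpl35a, with log2 ratios of -0.79, -2.95, -5.44 and -0.71. How reads with several alignments were counted is not given in the sources used here, so the level of any single parent or copy is uncertain. The same holds for Gm13394, Gm7993, Gm6969 and Atp6v0c-ps2, pseudogenes among the 15 genes with the greatest rise, such as Gm13394 from 0.718 ± 0.15 to 574 ± 7.2 FPKM.

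**Figure D5:**
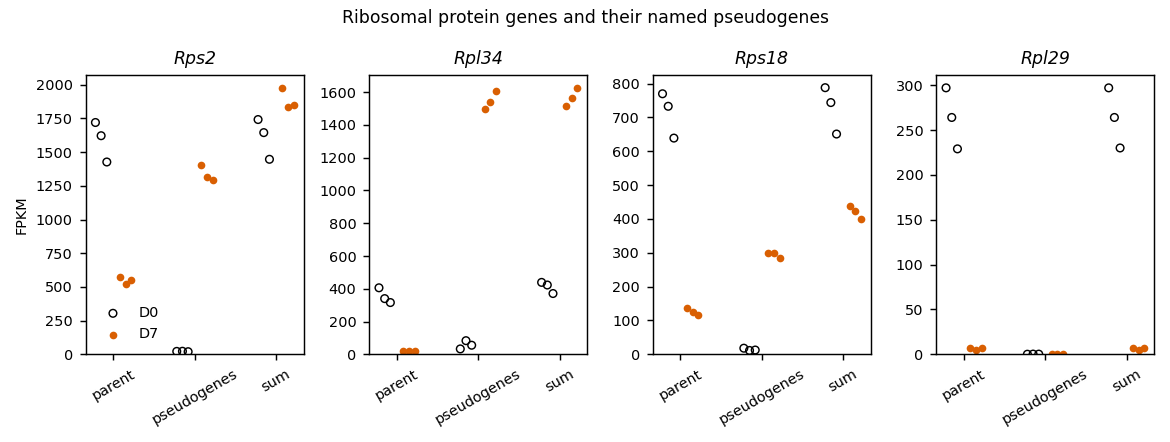
Summed level (vertical axis, FPKM, from 0) of the parent gene, of its named pseudogenes and of both together for 4 ribosomal protein families, 1 point per library, D0 open and D7 filled. Parent and copies of Rps2 and Rpl34 change places between the groups, and the sum for Rpl34 is 411 FPKM in D0 and 1569 in D7.

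Interferon-induced genes were lower in D7 almost throughout. Of 24 tested 0 rose and 22 fell (median -2.39). Ifit1, which binds viral RNA, stood at 11.8, 11.5 and 12.6 FPKM in the D0 libraries and 0.241, 0.215 and 0.166 FPKM in D7 (log2 fold change -3.43, SE 0.08, adjusted p = 5.15e-09), Ifit3 fell from 16.2 ± 1.57 to 1.26 ± 0.201 FPKM, and Stat2 and Irf9, factors that carry the interferon signal, from 58 ± 0.884 to 6.15 ± 0.569 FPKM and from 29.6 ± 1.28 to 5.62 ± 0.109 FPKM. Bst2 (tetherin) and Ifit2 were not called, with log2 fold changes of -0.27 and 0.73. Of 11 genes of MHC class I presentation 0 rose and 5 fell (1 and 5 with the length trend removed), among them B2m, its light chain, from 455 ± 28.2 to 226 ± 3.86 FPKM and H2-K1 from 77.5 ± 5.9 to 13.6 ± 0.582 FPKM. The B2m call was lost without D0 replicate 1 (-0.99), D0 replicate 2 (-0.97) or D7 replicate 1 (-0.99). H2-K1 is a heavy chain with close copies and so of uncertain level. Macrophage markers moved with these lists: all 15 fell, and their summed level was 1293 to 1369 FPKM in D0 libraries and 11.8 to 15.4 FPKM in D7, with Tyrobp, C1qa and C1qc listed at 0 in D7. Their part in the lower level of immune genes was not tested.

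The promoters of 10 of 18 interferon-induced members with a RefSeq window held GAAANNGAAAC, the core of the interferon-stimulated response element, on either strand, against 0.819% of all windows. Ifit1 and Ifit3 lie near each other on chromosome 19, and their stretches are chr19:34640744-34640834 and chr19:34583332-34583422 on the plus strand. Each window holds 2 matches, and the first, a reverse complement of the core, is in capitals.
Ifit1: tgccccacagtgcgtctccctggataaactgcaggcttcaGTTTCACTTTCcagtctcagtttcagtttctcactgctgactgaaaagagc
Ifit3: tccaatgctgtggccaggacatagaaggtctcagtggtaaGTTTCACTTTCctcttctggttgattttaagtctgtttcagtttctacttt

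Cytokines and chemokines changed in both directions. Of 20 chemokines and cytokines 8 rose and 7 fell. Il6 stood at 0.695, 0.62 and 0.599 FPKM in the D0 libraries and 10.9, 12.7 and 14.1 FPKM in D7, above D0 in every D7 library (log2 fold change 3.04, SE 0.10, adjusted p = 3.55e-08), Il33 rose from 2.29 ± 0.255 to 54.7 ± 2.74 FPKM, Cxcl1, which attracts neutrophils, from 1.19 ± 0.241 to 47.8 ± 1.6 FPKM, and the chemokines Ccl8 and Ccl11 from 5.88 ± 0.334 to 90.3 ± 6.03 FPKM and from 2.37 ± 0.351 to 39.4 ± 1.66 FPKM. Cxcl12, a chemokine of stromal cells, stood at 122, 121 and 120 FPKM in the D0 libraries and 3.98, 3.84 and 3.84 FPKM in D7 (log2 fold change -4.64, SE 0.04, adjusted p = 1.13e-10), and Cxcl10, which interferon induces, fell from 8.23 ± 1.03 to 0.359 ± 0.224 FPKM. Lif, a cytokine of the IL-6 family, rose from 5.18 ± 0.199 to 24.5 ± 0.176 FPKM. Of 15 complement and coagulation genes 2 rose and 5 fell, beside 15.2% and 15% of all genes tested. Masp1 and Clu rose from 23.6 ± 1.03 to 211 ± 7.56 FPKM and from 63.5 ± 2.08 to 346 ± 13.6 FPKM, and Serping1, the C1 inhibitor, fell from 42.4 ± 2.61 to 12.4 ± 0.363 FPKM.

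Single histone enzymes differed, but as a list they did not stand out from all genes. Of 27 histone deacetylases and methyltransferases 3 rose and 4 fell, no more than the 15.2% and 15% of all genes tested. The list's median log2 fold change was 0.04. Suv39h1, which methylates lysine 9 of histone H3, stood at 8.27, 9.15 and 7.68 FPKM in the D0 libraries and 106, 111 and 113 FPKM in D7, without overlap (log2 fold change 3.57, SE 0.06, adjusted p = 1.62e-09), while its relative Suv39h2 was not called (log2 fold change 0.11, SE 0.10, adjusted p = 0.346). Among the class II deacetylases Hdac9 rose from 1.13 ± 0.0552 to 28.5 ± 1.12 FPKM, and Hdac5 and Hdac7 fell from 60.1 ± 2.21 to 18.4 ± 0.309 FPKM and from 45.5 ± 0.611 to 12.1 ± 0.517 FPKM. Of 8 genes of DNA methylation and its removal 1 rose and 4 fell (1 and 2 with the length trend removed), with Uhrf1, which guides methylation to new DNA, down from 16.1 ± 0.867 to 3.29 ± 0.189 FPKM, Dnmt3a from 41.8 ± 4.25 to 18.7 ± 1.01 FPKM (-0.91 with the length trend removed) and the glycosylase Tdg from 39.6 ± 3.21 to 4.05 ± 0.561 FPKM. Imprinted growth genes fell more often than they rose, 11 against 3 of 22. Peg3 and Grb10 fell from 299 ± 41.1 to 31.1 ± 0.979 FPKM and from 696 ± 26.5 to 124 ± 3.73 FPKM, the receptor Igf2r from 579 ± 43.1 to 170 ± 3.8 FPKM, while H19 was not called (log2 fold change -0.57, SE 0.06, adjusted p = 5.25e-05). Of 12 IGF-binding and related proteins 5 rose and 4 fell. Igfbp5 stood at 738, 769 and 799 FPKM in the D0 libraries and 33.4, 34 and 31.9 FPKM in D7 (log2 fold change -4.50, SE 0.05, adjusted p = 1.8e-10), whereas Igfbp3 rose from 143 ± 10.9 to 451 ± 8.42 FPKM and the protease Htra1 from 272 ± 19.9 to 1012 ± 20.9 FPKM.

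Markers of differentiated cell types were checked against the label of the D7 cells. Of 11 fibroblast markers 2 rose and 4 fell, with Vim and Thy1 not called (log2 fold change -0.51, SE 0.05, adjusted p = 2.59e-05 for Vim and log2 fold change -0.52, SE 0.05, adjusted p = 2.8e-05 for Thy1) and still at means of 1035 and 987 FPKM in D7. Of 10 tested neuron markers 8 rose and 1 fell. Gap43, a protein of growing axons, stood at 31.3, 31.8 and 30.8 FPKM in the D0 libraries and 605, 617 and 633 FPKM in D7 (log2 fold change 4.26, SE 0.04, adjusted p = 1.11e-10). The neurofilament genes Nefm and Nefl rose from 0.0878 ± 0.0455 to 56.1 ± 4.34 FPKM and from 0.0133 ± 0.0124 to 30.3 ± 0.714 FPKM. Tubb3 fell from 25.1 ± 1 to 11.6 ± 1.26 FPKM, and Rbfox3, Elavl3, Elavl4, Dcx and the neurofilament gene Nefh stayed under 1 FPKM in all libraries. Of 7 tested Schwann and glial markers S100b rose from 0.146 ± 0.0361 to 13.2 ± 1.84 FPKM and the neurotrophin receptor Ngfr from 3.28 ± 0.277 to 8.92 ± 0.507 FPKM, whereas Sox10, Fabp7 and Cdh19 were among 4 that fell. Of the 17 neural crest factors above, 11 rose and 3 fell. Foxd3, a crest factor outside those 17, stayed under 1 FPKM, and Sox10 stood at 2.19, 1.93 and 1.61 FPKM in the D0 libraries and 0.232, 0.48 and 0.21 FPKM in D7, while Tfap2a had a D7 mean of 18.9 FPKM. Epithelial markers were low: of 4 tested Cldn3 rose from 0.495 ± 0.142 to 17.6 ± 1.09 FPKM, Krt8 and Krt18 fell, and Cdh1, Krt5, Krt14 and Grhl2 stayed under 1 FPKM. Of 4 melanocyte, 4 adipocyte and 7 skeletal muscle markers tested, 0, 0 and 2 rose and 1, 2 and 2 fell (1 adipocyte marker with the length trend removed), and of 6 markers of cartilage and bone and 6 of vessels 2 and 3 rose and 1 and 1 fell. Among 7 keratocyte genes 4 rose and 0 fell, with Angptl7 from 2.57 ± 0.269 to 35.6 ± 0.866 FPKM. Among 11 corneal endothelial genes 3 rose and 2 fell, beside 15.2% and 15% of all genes tested.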

How the data were processed

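Per the labels, total RNA was extracted with Trizol from frozen cells and made into Illumina TruSeq libraries. The authors deposited FPKM values per gene, and the submitters' processing notes name Bowtie 0.12.2 and the builds mm10 and mm8. How FPKM were computed, whether strand was used and how reads with several alignments were counted are not given in the sources used here, so reads of overlapping and antisense genes cannot be told apart.

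The gene IDs of the deposited table match its D0 columns only. D7 lines were put back on genes from the order in which a Python 2 dictionary with 131072 slots lists its keys. A line with reads kept a gene only where its FPKM values above 0 gave whole reads (tolerance 0.001, widened for rounding). The length used was that of GENCODE M21, or one set on D0 and tried at up to 12 multiples. The library totals behind this check made 7, 7 and 6 of 14 lines whole in the D7 libraries and 13 of 14 in each D0 library. The placement gave 25677 genes with reads in D7 and 97.5385% of the D7 lines with reads. It set 24383 genes to 0 in D7 and left 4172 genes unplaced. Placing D0 by the same steps returned 13086 of 13127 genes at 1 FPKM or more to their own ID, although 981 transcript lengths had been set on D0 itself. With the lengths of 20% of genes hidden, 92.2%, 93.3% and 93.9% of those genes at 1 FPKM or more were returned. A gene listed at 0 in D7 is the least certain case. Value columns of other groups, 7 in all, were not used.

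Genes with at least 1 FPKM in 1 of 6 libraries (15025) were fitted with limma 3.58.1 in R 4.3.3 on log2(FPKM + 1), with a trended variance, no block and Benjamini-Hochberg adjustment over all of them, and the code was tested on simulated data. For genes of low level this scale gives folds that are too small. The replicate numbers did not pair libraries: same-numbered libraries had deviations correlated at 0.00393, 0.00512 and -0.054. Alternatives changed the pseudocount, filter, scaling, test, block and fold limit, kept only genes with whole reads in both groups, or left out 1 library. No other placement of the D7 lines was fitted. The length correction was added after seeing the data. The gene lists and members were chosen with earlier results of these data known, so lists carry counts and medians and no test. Beyond list members, the text names genes from the 15 called with the largest rise and the 15 with the largest fall. To enter, these needed a mean of 20 FPKM or more in the higher group, reads in each of its libraries and no overlap between groups. The text also names genes from the 5 with the largest gain and the 5 with the largest loss of FPKM. Promoter windows are from RefSeq. Intervals and p-values cover only the spread between libraries. Some list members are not reported here by name.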

Additional observations from a re-analysis of the deposited data

How the results depend on the processing

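Counts of called genes stayed within 1.5 times the main values (4536, of which 2285 higher and 2251 lower) under all alternatives except a pseudocount of 5, with 2353 genes (1340 higher, 1013 lower), and no fold limit, with 12298 genes (6041 higher, 6257 lower). Leaving out 1 library gave 4381 to 4704 genes, 2208 to 2361 higher and 2173 to 2343 lower. Of the 70 lists, 33 had more members called higher than lower, 31 to 34 did without 1 library, 30 with a pseudocount of 5 and 28 with quantile normalization. The mitochondrial ratio of 2.277 ranged from 2.241 to 2.306 without 1 library. A share is not altered by scaling a library, and the ratio of summed mitochondrial FPKM after median ratio scaling was 2.85. With the replicate number as a block, 4542 genes were called, 2287 higher and 2255 lower, and none of the 301 named genes changed its call. No named gene changed sign with a call under any alternative. Quantile normalization called Vim, Thy1, Tpm1 and H19 lower and ended the calls of Cdkn1a, Pdgfra, Txnrd1, Rplp1 and mt-Co1. A pseudocount of 5 ended the calls of 22 named genes. In 11 lists the side with more called members turned under at least 1 alternative, among them mesenchyme transcription factors, proteoglycans, Schwann and glial markers, complement regulators and histone deacetylases. Depth limits mainly genes near 1 FPKM.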

Other observations

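Genes of neuropeptides and of the dense-core vesicles that store them were higher in D7, a list drawn up after the values had been seen and so without a test. Of 18 tested 13 rose and 0 fell, and 13 rose and 1 fell with the length trend removed (median log2 fold change 2.65). Penk, the precursor of enkephalins, stood at 0.673, 0.537 and 0.654 FPKM in the D0 libraries and 209, 203 and 212 FPKM in D7 (log2 fold change 7.01, SE 0.05, adjusted p = 5.81e-11). Vgf, a secreted neuronal peptide precursor, stood at 0.177, 0.444 and 0.132 FPKM in the D0 libraries and 85.2, 82.2 and 99 FPKM in D7, and Pcsk1n, an inhibitor of a prohormone convertase, at 1.24, 0.588 and 0.473 FPKM in the D0 libraries and 114, 117 and 123 FPKM in D7. For Vgf and Pcsk1n every D7 library lay above every D0 library. Calca, which encodes calcitonin and its related peptide, rose from 0.0511 ± 0.0455 to 33.8 ± 5.4 FPKM, Cadps, which primes dense-core vesicles for release, from 0.0935 ± 0.047 to 50.1 ± 0.0404 FPKM, and Nrgn, a calmodulin-binding protein of neurons, from 0.392 ± 0.103 to 194 ± 8.04 FPKM. Sst (somatostatin) was listed at 0 in D0 and stood at 5.25, 4.89 and 5.65 FPKM in the D7 libraries. The prohormone convertases Pcsk1 and Pcsk2 and the granin Chgb stayed under 1 FPKM in all 6 libraries.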
